A study of Oryctolagus cuniculus with 54 samples.

Results

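The 150 genes described here are those with the largest increase in mean level between the 25th and the 29th day of gestation in the rabbit lung whose level 11 days after term birth was not more than a set margin below that of the 28th day. They were taken from the 29587 genes of a table of read counts by a rule on measured values. In run 1 of 3 sequencing runs, every F29 library had to lie above every F25 library, which 1914 genes did, and the F29 mean had to be at least 2.6 on the log2(CPM+1) scale (CPM, the count scaled to a library total of 1000000), which left 1400. In run 3, the T42 mean had to be no more than 0.5 below the F28 mean, which left 1159 and removed 241. The 150 of these with the largest F29 minus F25 difference are called members and are numbered by that difference. Because F25, F28, F29 and T42 chose the members, all values that compare these groups are a description without a test.

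The lungs came from 45 New Zealand White rabbit pups in 13 groups and 54 libraries. Fetal pups were taken by C-section on gestational day 20 (F20, 4 animals), 23 (F23, 4), 25 (F25, 3), 27 (F27, 3), 28 (F28, 3) and 29 (F29, 3). Term pups were born naturally on day 31 and their lungs were taken at birth (T31, 6 animals) or after 4 days (T35, 3), 6 days (T37, 4) or 11 days (T42, 3) with their mothers in room air. Preterm pups were taken by C-section on day 28 and kept for 1 h (P0, 3 animals), 3 days (P3, 3) or 7 days (P7, 3) in incubators at 21% oxygen on a milk replacer, so that P3 and T31, and P7 and T35, have the same age from conception. No hyperoxia or other lung insult was given, and preterm pups differ from term pups in delivery, feeding and housing as well as in age at birth. By the study's methods, the lungs of a time point came from pups of different dams. Whether pups of different groups shared a dam is not given for these libraries. The tissue was right lung, except that the study's methods name whole lungs at F20 and F23 where the labels name right lung. The sex of the pups is not given in the sources used here.

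In late gestation the lung passes from the canalicular to the saccular phase. The airway tips widen into thin-walled sacs, epithelial cells mature into surfactant-producing alveolar type 2 cells and flat alveolar type 1 cells, and capillaries come to lie against the airspace. A rabbit delivered on day 28 is therefore born within the saccular phase, and formation of secondary septa follows around and after term.

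The table identifies genes by Ensembl identifier only and does not pair them with symbols. Of its 29587 identifiers, 0 were found in the RefSeq gene table used here, and 23 prepared gene lists, cell type markers included, matched 0 identifiers. The members can therefore not be grouped by function, and the labelled tissue could not be checked against its markers. Members are named by number. Members 1 and 2, which rose between F23 and T31, are ENSOCUG00000015772 and ENSOCUG00000005922. Members 139 and 19, which fell in 1 comparison each, are ENSOCUG00000006682 and ENSOCUG00000023599. In whole lung, fewer cells of a type and less RNA per cell cannot be told apart.

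Library totals lay between 5771693 and 8073755 counts (5771693 to 7381691 in run 1, 6683823 to 7989730 in run 2 and 6433138 to 8073755 in run 3). Run 1 held F25, F27, F28, F29, T31 and T35, run 2 held the preterm groups with some F28 and T35 animals, and run 3 held F20, F23, T37 and T42 with other groups. Levels are therefore compared within a run. Of the 45 animals, 6 were sequenced in more than 1 run. Over the 12 pairs of such repeat libraries, the median absolute difference of the members was 0.199 to 0.598 on the log2(CPM+1) scale, and over 53 pairs of different animals of 1 group in 1 run it was 0.256 to 0.826.

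The F29 minus F25 difference of the 150 members ran from 1.75 to 4.75 on the log2(CPM+1) scale, with a median of 2.15 and quartiles of 1.92 and 2.46. At F29 in run 1, 20 members had a mean of 100 CPM or more, 103 lay from 10 to below 100 CPM and 27 were below 10 CPM. The members next to the limit were close to the genes left out: members 148, 149 and 150 differed by 1.76, 1.75 and 1.75, and the next 3 genes by 1.74, 1.74 and 1.73. When 1 of the 6 F25 and F29 libraries was left out, 125 to 136 of the 150 genes stayed in the set, the fewest without F29 animal 2. The 3 F29 libraries were within 2-fold of each other for 125 members and more than 8-fold apart for 2, members 21 and 139.

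Member 1 had 3.98, 3.12 and 1.01 CPM in the 3 F25 libraries of run 1 and 132, 140.2 and 41.5 CPM at F29. Its F27 libraries stood between them at 21.5, 3.41 and 64.9 CPM, and its F28 libraries were already at 109, 176 and 104 CPM. The F27 animals thus spread widely, with 1 at the level of F25 and 1 above an F29 animal. Member 2 was expressed at a higher level throughout, with 32.9, 41.3 and 40.6 CPM at F25, 104, 73.6 and 118 CPM at F27, 864, 543 and 264 CPM at F28 and 924, 941 and 523 CPM at F29. For member 2 the 4 groups do not overlap up to F28, and F28 and F29 overlap.

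Member 4 had 96.5, 77.6 and 46.7 CPM at F25, 192, 241 and 431 CPM at F27, 884, 878 and 811 CPM at F28 and 1584, 1743 and 752 CPM at F29. The 3 F28 animals were nearly equal, and 1 F29 animal was below all of them. Member 8, among the most abundant of the set, had 116, 134 and 114 CPM at F25 and 195, 253 and 690.2 CPM at F27. It had 531, 1183 and 1126 CPM at F28 and 1013, 1759.7 and 1172 CPM at F29. Its highest F27 animal exceeded the lowest F28 animal.

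**Figure D1:**
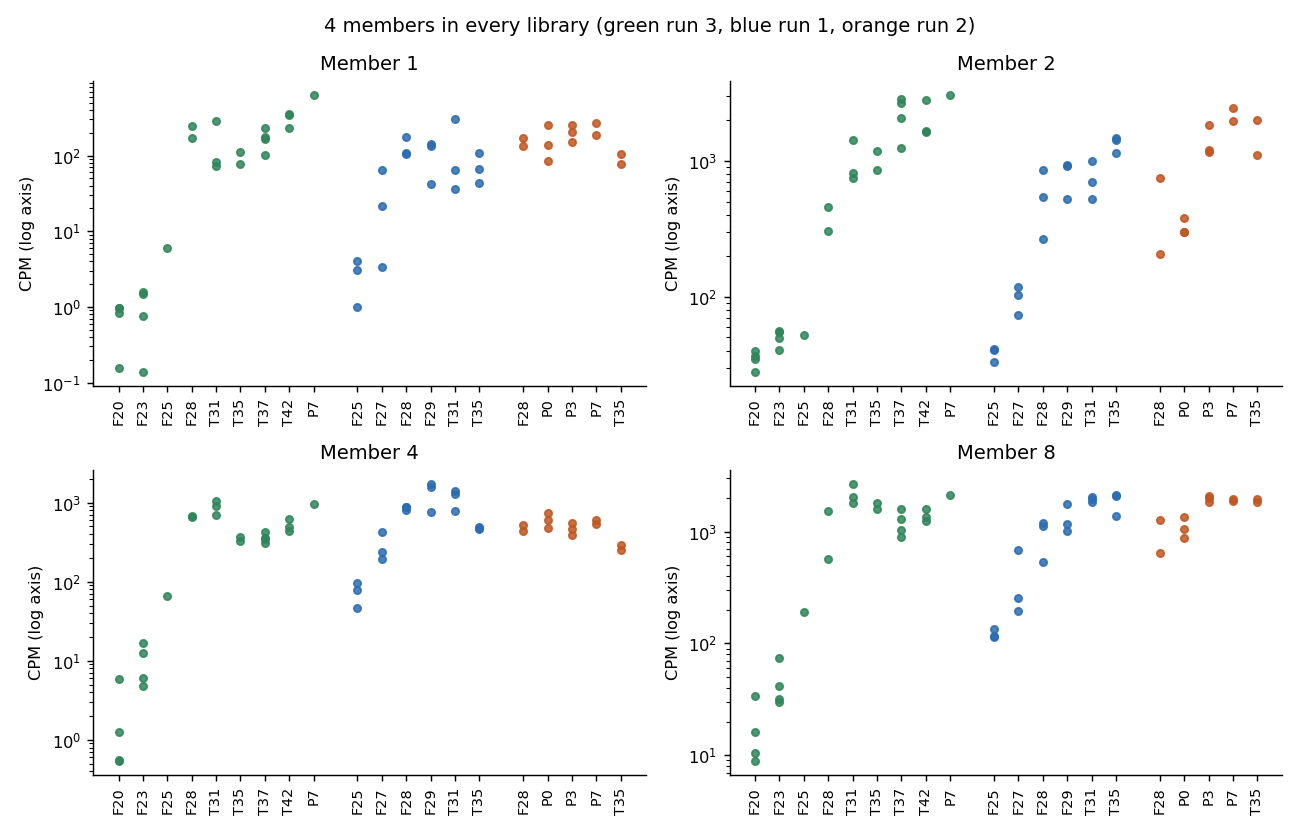
CPM (log axis) of members 1, 2, 4 and 8 in every library, by group within run (green run 3, blue run 1, orange run 2), each point 1 library. Member 2 lies at 32.9 to 41.3 CPM at F25 in run 1 and at 523 to 941 CPM at F29.

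Within run 1, most of the difference was already present at F28. The median member level, averaged over animals, was 2.19 ± 0.39 (SD, n = 3) on the log2(CPM+1) scale at F25. The F27 value was 3.21 ± 0.34 (SD, n = 3), the F28 value 4.10 ± 0.04 (SD, n = 3) and the F29 value 4.46 ± 0.07 (SD, n = 3). The 3 F28 animals lay above the 3 F27 animals and below the 3 F29 animals. F25 and F27 did not overlap either. The median step of a member was 0.97 from F25 to F27, 0.90 from F27 to F28 and 0.30 from F28 to F29, where the medians of all 14600 genes measured in run 1 were -0.0543, 0.00389 and -0.0507. The member mean was higher at F27 than at F25 in 148 members and higher at F28 than at F27 in 138. It was higher at F29 than at F28 in 131, and 118 members ascended at every step. The members were chosen for a large difference between these same F25 and F29 libraries, which favours larger steps and these counts.

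Single animals blur these steps. Every F27 library was above every F25 library in 65 of the 150 members, every F28 library above every F25 library in 128, and every F28 library above every F27 library in 87. Over all 14600 genes these separations were found in 4.95%, 12.1% and 8.51%. These steps lie within the rise from F25 to F29 by which the members were chosen. The rule therefore favours these separations, and their counts are no independent test of a rise.

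The share of its own F25 to F29 difference that a member had reached gives its timing. The F25 and F29 values that set this difference also chose the members. The median share was 0.433 at F27 (quartiles 0.335 and 0.515) and 0.87 at F28 (quartiles 0.756 and 0.937). By F27, 41 members had reached at least 0.5 of the difference and are called early. Another 96 reached it by F28 (middle), and 13 reached it only after F28 (late). The F27 share depended on the animal: its median over members was 0.309 in F27 animal 1, 0.472 in animal 7 and 0.496 in animal 11. The F28 animals were closer together, with 0.896, 0.833 and 0.87. Without F27 animal 1 the early, middle and late counts were 78, 63 and 9, and without F25 animal 3 they were 68, 67 and 15, so the border between early and middle rests on single animals.

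The extremes of the timing were members with scattered libraries. Member 21 was late, with 6.93, 1.48 and 5.22 CPM at F25, 9.55, 12.8 and 4.39 CPM at F28 and 15.3, 353 and 9.38 CPM at F29, and 1 F29 animal carries its difference. Member 5 was late with less scatter: it had at most 2.08 CPM at F25, 0.335, 0.512 and 7.26 CPM at F28 and 13.2, 16.2 and 28.3 CPM at F29. Member 139 had 92.2 CPM in 1 F29 animal and 1.99 and 2.12 CPM in the others, little above the 1.69 to 1.8 CPM of F25.

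**Figure D2:**
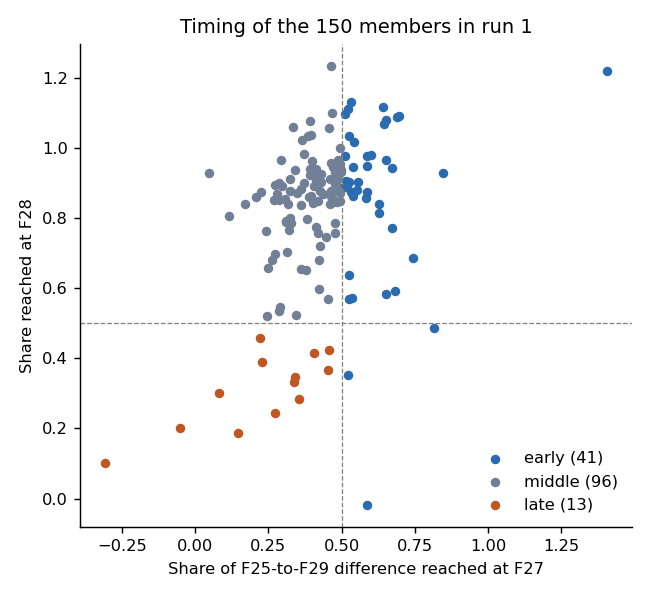
Share of the F25 to F29 difference in mean log2(CPM+1) of run 1 that each of the 150 members had reached at F27 (x axis) and at F28 (y axis), each point 1 member. The 41 early, 96 middle and 13 late members are separated by the dashed lines at a share of 0.5.

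After F29 the set as a whole stayed near the level it had reached. In run 1 the median member level was 4.12 ± 0.41 (SD, n = 3) at T31, and that of T35 was 4.31 ± 0.17 (SD, n = 3). Of the T31 animals, 1 was above all 3 F29 animals while the other two were below them. The member mean at T31 was below that at F29 in 108 members and above it in 42, while 48.1% of all genes were above it. The members were chosen for high values in these same F29 libraries, so no fall after F29 can be read from this count. The highest of the run 1 group means was at F29 in 79 members, T35 in 31, T31 in 27, F28 in 12 and F27 in 1. The members' share of all counts was 0.193% ± 0.0523 (SD, n = 3) at F25, and F27 had 0.445% ± 0.164 (SD, n = 3). F28 had 0.889% ± 0.0169 (SD, n = 3), F29 had 1.19% ± 0.178 (SD, n = 3) and T31 had 1.32% ± 0.124 (SD, n = 3). The 10 most abundant members held 54.7% to 70.8% of the members' counts in the F29 and T31 libraries of run 1, so the share weighs these more than the median level does.

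In run 3 the median member level was 1.15 ± 0.29 (SD, n = 4) in the F20 animals, 1.83 ± 0.10 (SD, n = 4) in the F23 animals and 2.20 in the 1 F25 library. Both F28 libraries had 4.00. The T31 animals had 4.30 ± 0.27 (SD, n = 3), the T37 animals 4.46 ± 0.18 (SD, n = 4) and the T42 animals 4.52 ± 0.29 (SD, n = 3). The T42 minus F28 difference that the rule limited from below had a median of 0.43 and ran from -0.48 to 3.79, and 110 members were above 0.

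**Figure D3:**
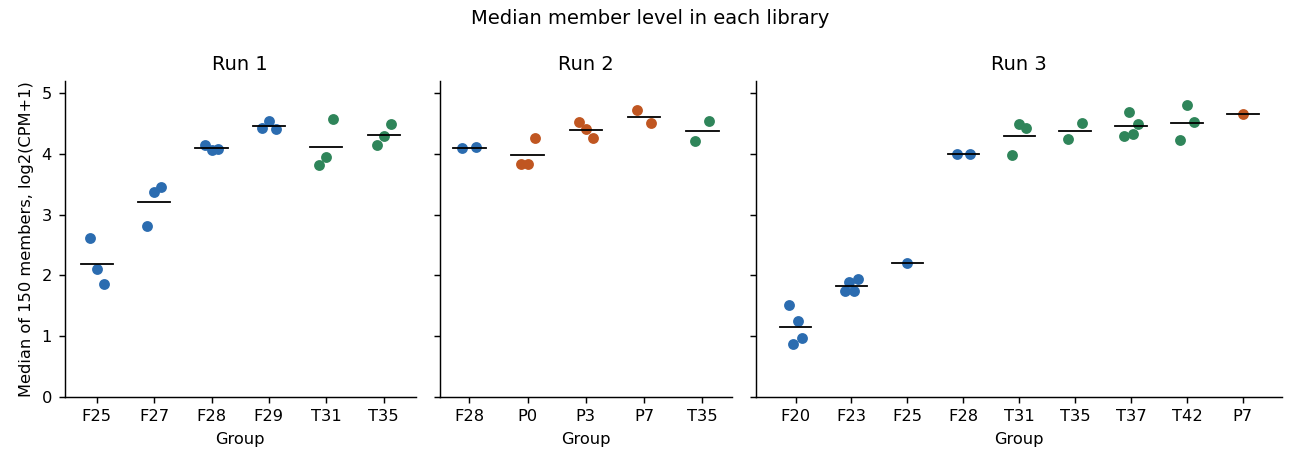
Median over the 150 members of log2(CPM+1) in each library (points) and the group mean (bars), by group and run (blue fetal, green term, orange preterm). The level goes from 0.864 to 1.52 in the F20 libraries to between 3.82 and 4.80 in the term libraries.

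Whether the members increased before day 25 can be tested in F20 and F23, which lay only in run 3 and played no part in the rule. At F23, 42 members were higher and 0 lower than at F20. A call here and below is a more than 2-fold change with an adjusted p no greater than 0.05, by the quasi-likelihood test of edgeR after Benjamini-Hochberg adjustment over all genes tested, which were 14817. Of all genes, 1.66% were called higher and 0.189% lower. At an unadjusted p under 0.05, 80 members were higher and 1 lower. DESeq2 called 49 higher and limma-voom 12, and both called 0 lower. The median log2 fold change of the members was 1.14, against -0.00254 over all genes. It was 1.13 when the 4 members with 0 counts in all 4 F20 libraries were set to the bound given by 3 counts over the group.

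Many of these levels were close to the detection limit. The mean was below 1 CPM for 60 members at F20 and for 38 at F23, and 15 to 28 members had 0 counts in an F20 library against 3 to 5 in an F23 library. Member 99 had 0.311, 0.547, 0.273 and 0 CPM at F20 and 5.89, 2.79, 3.31 and 4.17 CPM at F23. The groups do not overlap, and the log2 fold change was 3.76 (SE 0.47, adjusted p = 3.69e-05, edgeR). Member 33 had 0.311, 0.137, 0 and 0 CPM at F20 and 0.736, 0.775, 0.966 and 3.13 CPM at F23, again without overlap. Member 4 had 1.24, 5.88, 0.546 and 0.551 CPM at F20 and 12.7, 4.81, 6.07 and 16.9 CPM at F23, with 1 F20 animal inside the F23 range, and its log2 fold change was 2.28 (SE 0.50, adjusted p = 0.00921, edgeR). Member 1, which had the largest increase from F25 to F29, was at 0.155 to 0.964 CPM at F20 and 0.138 to 1.55 CPM at F23 and was not called (adjusted p = 0.877, edgeR). The count of 42 fell to 24 without F20 animal 17.

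Between F23 and term birth nearly all members rose. The rise from F25 to F29 by which they were chosen lies within this span. The rule therefore favours higher calls here, and their count is no independent test of a rise. In run 3, T31 was higher than F23 in 137 members and lower in 1 (edgeR), while 12.1% of all 14817 genes were called higher and 10.1% lower. The median log2 fold change of the members was 3.32, and every T31 library was above every F23 library in 131, as in 13% of all genes. Member 12 had 2.5, 0.93, 0.69 and 1.19 CPM at F23 and 106, 147 and 306 CPM at T31. Its groups were far apart, with a log2 fold change of 7.39 (SE 0.37, adjusted p = 2.54e-11, edgeR). Member 1 had 1.47, 1.55, 0.138 and 0.746 CPM at F23 and 282, 82.2 and 72.1 CPM at T31, a log2 fold change of 7.44 (SE 0.53, adjusted p = 2.21e-09, edgeR). Member 4 went from at most 16.9 CPM at F23 to 904, 692 and 1059 CPM at T31, a log2 fold change of 6.71 (SE 0.48, adjusted p = 2.28e-09, edgeR).

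The 13 members not called higher at T31 than at F23 are members 3, 27, 32, 37, 50, 91, 107, 117, 129, 132, 138, 139 and 148. Member 27 already had 17.1, 20, 7.87 and 6.26 CPM at F23 and only 10.7, 5.63 and 18.3 CPM at T31. Its groups overlapped throughout, and its adjusted p was 0.871 (edgeR). Member 139 had 2.21, 3.1, 1.52 and 215 CPM at F23 and 2.44, 0.844 and 0.991 CPM at T31, and its call as lower (log2 fold change -5.03, SE 1.65, adjusted p = 0.0196, edgeR) rests on 1 F23 animal. Without F23 animal 23, T31 animal 11 or T31 animal 18, 0 members were called lower, and without T31 animal 4 the count was 2.

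The later portion of the rise was compared in run 1. Its F27 and T31 libraries played no part in the rule, and the T31 animals were others than in run 3. The span from F27 to T31 still covers part of the chosen rise from F25 to F29, so the rule favours higher calls here too. T31 was higher than F27 in 57 members and lower in 0 (edgeR), against 2.88% of all 14600 genes called higher and 2.71% lower. At an unadjusted p under 0.05, 105 members were higher and 0 lower, DESeq2 and limma-voom also called 0 lower, and the median log2 fold change was 1.07. Every T31 library was above every F27 library in 72 members and in 9.24% of all genes. Member 15 had 0.613, 2.11 and 3.84 CPM at F27 and 22.4, 64.8 and 52.7 CPM at T31, a log2 fold change of 4.47 (SE 0.61, adjusted p = 0.000675, edgeR). It was at 34.9, 7.85 and 19.5 CPM at F28, so that all F28 animals were above all F27 animals. Member 136 had 0.307, 2.76 and 3.68 CPM at F27 and 11.3, 82.4 and 27.3 CPM at T31 (log2 fold change 4.23, SE 0.75, adjusted p = 0.00228, edgeR), and unlike most members it was higher at T31 than at F29, where it had 3.54, 11 and 3.48 CPM. Member 2 had 524, 1007 and 699 CPM at T31, above its F27 libraries by a log2 fold change of 2.98 (SE 0.35, adjusted p = 0.000276, edgeR). The 57 calls fell to 29 without F27 animal 1, the animal with the lowest median level of its group.

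Member 21 shows how far a call can rest on 1 animal. It was called higher at T31 than at F27 (log2 fold change 4.40, SE 1.28, adjusted p = 0.0375, edgeR) with 2.15, 10.9 and 4.48 CPM at F27 and 23, 21.4 and 311 CPM at T31. In run 3 it had 17.5, 9.43 and 431 CPM at T31 and 11.8, 8.44, 6.19 and 11.6 CPM at T37. In both runs 1 T31 animal was more than 10-fold above the others.

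In the first days after term birth the set did not move in 1 direction. In run 1, T35 against T31 gave 0 members higher and 0 lower (edgeR), where 0.904% of all genes were called higher and 0.37% lower. At an unadjusted p under 0.05, 9 members were higher and 7 lower (10.7% of the members, against 16.1% of all genes), DESeq2 called 2 and limma-voom 0. The median log2 fold change was 0.08. Without T31 animal 10 the count was 1, and without T31 animal 15 it was 2. In run 3, T37 against T31 gave 6 members higher and 9 lower, with 3.85% of all genes called higher and 1.8% lower, and a median member log2 fold change of -0.02. The 6 higher are 4% of the members, near the share of all genes, and the 9 lower are 6%. At an unadjusted p under 0.05 (edgeR), 16 members were higher and 21 lower (24.7% of the members, against 27.8% of all genes). The lower count was 5 without T31 animal 18.

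Among the 6 higher, member 27 had 10.7, 5.63 and 18.3 CPM at T31 and 145, 37, 112 and 153 CPM at T37, without overlap (log2 fold change 3.09, SE 0.62, adjusted p = 0.00234, edgeR). It stayed at 116, 192 and 116 CPM at T42. Member 107 had 4.48, 5.91 and 2.11 CPM at T31 and 16.1, 12.5, 12 and 21.4 CPM at T37 (log2 fold change 1.77, SE 0.38, adjusted p = 0.00372, edgeR). Both are among the 13 that were not called higher at T31 than at F23. Member 2 was called higher (log2 fold change 1.00, SE 0.26, adjusted p = 0.0137, edgeR), with 819, 1435 and 748 CPM at T31 and 1243, 2682, 2076 and 2842 CPM at T37, and here the groups overlap.

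Among the 9 lower, member 4 had 431, 362, 307 and 350.2 CPM at T37, all below its T31 libraries (log2 fold change -1.44, SE 0.39, adjusted p = 0.0161, edgeR), and was at 496, 615 and 435 CPM at T42. Member 19 had 379, 769 and 1285 CPM at T31 and 141, 376, 34.3 and 156 CPM at T37, with the highest T37 animal just below the lowest T31 animal (log2 fold change -2.35, SE 0.51, adjusted p = 0.00411, edgeR). Member 127 had 365, 226 and 215 CPM at T31 and 114, 59.2, 74 and 129.8 CPM at T37 (log2 fold change -1.65, SE 0.40, adjusted p = 0.00893, edgeR). These 3 were among the members the rule kept, since it looked at T42 and not at T37.

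**Figure D4:**
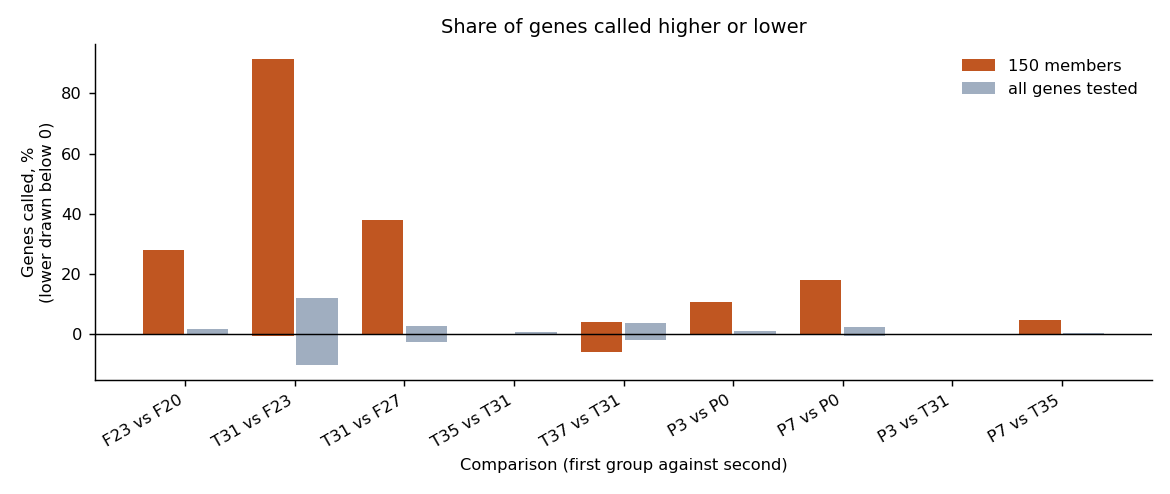
Percent of genes called higher (above 0) or lower (drawn below 0) by edgeR (more than 2-fold, adjusted p no greater than 0.05) in 9 comparisons, for the 150 members (orange) and all genes tested (grey). The members' share is 91.3% higher for T31 against F23 and 0 in either direction for T35 against T31 and for P3 against T31.

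Preterm pups were delivered on day 28, when the members had reached most of their increase. In run 2 the median member level was 4.11 ± 0.01 (SD, n = 2) at F28, 3.98 ± 0.25 (SD, n = 3) at P0, 4.40 ± 0.13 (SD, n = 3) at P3, 4.61 ± 0.15 (SD, n = 2) at P7 and 4.37 ± 0.24 (SD, n = 2) at T35. At 1 h after delivery the set was around the F28 level: the median P0 minus F28 difference was -0.11, with 63 members above 0 and 87 below, beside a median of -0.0485 and 42.8% above 0 over all genes. In median member level, 1 of the P0 animals lay above both F28 animals and the others below. The median difference from F28 was 0.12 at P3 and 0.28 at P7, where all genes had -0.0242 and -0.00885. The members' share of all counts was 1.08% ± 0.0517 (SD, n = 3) at P0, 1.48% ± 0.159 (SD, n = 3) at P3 and 1.96% and 2.3% in the P7 animals of run 2, and 2.43% in the P7 animal of run 3.

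Over the first 3 days after preterm delivery, 16 members rose and 0 fell (P3 against P0, edgeR with the run in the model over 21 libraries, 1 per animal), where 1.04% of all 14544 genes were called higher and 0.172% lower. At an unadjusted p under 0.05, 36 members were higher and 5 lower, and DESeq2 and limma-voom called 0 lower. The median log2 fold change of all 150 was 0.22, so the members that rose were a minority of the set. The count was 5 to 10 when any 1 of the 6 animals was left out and 4 without the run in the model. By 7 days, 27 members were higher than at P0 and 0 lower (edgeR), with 2.5% of all genes called higher and 0.536% lower, 49 members higher and 3 lower at an unadjusted p under 0.05, and a median log2 fold change of 0.42. DESeq2 called 1 lower and limma-voom 0, and without P7 animal 4 edgeR called 1 lower. Both comparisons share the 3 P0 animals. P0 pups were delivered on day 28, and the rule left out genes whose T42 mean was more than 0.5 below the F28 mean. It therefore works against falls after day 28 and favours rises, so these counts are no independent test of a rise.

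Member 127 had 62.5, 77.3 and 84.1 CPM at P0, 926, 216 and 336 CPM at P3 and 980.1, 1154 and 1008 CPM at P7, the last library from run 3. The 3 groups do not overlap. Its log2 fold change was 2.70 at P3 (SE 0.49, adjusted p = 0.00744, edgeR) and 3.72 at P7 (SE 0.52, adjusted p = 0.000247, edgeR).

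Member 136 had 5.39, 8.09 and 5.48 CPM at P0, 26.8, 33.2 and 63.8 CPM at P3 and 87.2, 97.5 and 67 CPM at P7, in separate ranges (log2 fold change at P7 3.84, SE 0.56, adjusted p = 0.000346, edgeR). Member 2 had 299.7, 298 and 377 CPM at P0, 1843, 1201 and 1170.3 CPM at P3 and 2458, 1976 and 3067 CPM at P7. For member 2 every later group was above the one before, with log2 fold changes of 2.09 at P3 (SE 0.39, adjusted p = 0.0076, edgeR) and 2.88 at P7 (SE 0.41, adjusted p = 0.000289, edgeR).

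Member 15 had 18, 24.3 and 21.4 CPM at P0, 76.5, 93 and 86.9 CPM at P3 and 139, 149 and 175 CPM at P7 (log2 fold change at P7 2.80, SE 0.48, adjusted p = 0.0015, edgeR). By contrast, member 4 was level, with 731, 485 and 598 CPM at P0, 555, 461 and 396 CPM at P3 and 542, 605 and 958 CPM at P7. Its groups overlapped, and its adjusted p at P7 was 0.944 (edgeR).

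By timing in run 1, the members called higher at P7 than at P0 were 4 of the 41 early, 17 of the 96 middle and 6 of the 13 late members, and the median log2 fold changes were 0.41, 0.39 and 1.40. No test of this difference between classes was made. The classes were defined with F29, which did not enter the preterm fit, and with F28, which did. Late members had by definition reached less of their difference on day 28, when the P0 pups were delivered. Their median share at F28 was 0.332, against 0.903 in the early and 0.87 in the middle class. The definition itself thus favours a larger rise after P0 in the late class.

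At the same age from conception, preterm and term animals were compared in the same fit. P3 against T31 gave 0 members higher and 0 lower (edgeR), where 0.0963% of all genes were called higher. At an unadjusted p under 0.05, 10 members were higher and 4 lower (9.33% of the members, against 10.4% of all genes), DESeq2 called 3 and limma-voom 0, and the median log2 fold change was -0.02. No run held both groups, so this comparison goes through the run term, and without other groups the run and the group cannot be told apart.

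P7 against T35 gave 7 members higher and 0 lower (edgeR), where 0.254% of all genes were called higher and 0.00688% lower. At an unadjusted p under 0.05, 30 members were higher and 1 lower, DESeq2 and limma-voom called 0 lower, and every P7 library was above every T35 library in 44 members and 11.6% of all genes. These libraries came from runs 2 and 3 for P7 and from runs 1 and 2 for T35. The 7 were members 19, 104, 110, 118, 127, 137 and 145. Run 2 alone, with 2 animals of each group, also gave 7. The count was 1 without T35 animal 6, 1 without T35 animal 11, 2 without P7 animal 4, 3 without P7 animal 3, 4 without P7 animal 1 and 4 without T35 animal 1.

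Member 127 had 83.2 and 88.9 CPM at T35 in run 2 and 98.8 and 104 CPM in the run 3 libraries of the same animals, against at least 980.1 CPM in the P7 animals. Its log2 fold change was 3.37 (SE 0.53, adjusted p = 0.00563, edgeR). Member 137 had 56.8, 26.3 and 40.5 CPM at P0, 391, 84.5 and 163 CPM at P3, 337 and 532 CPM at P7 and 31 and 45.5 CPM at T35, all in run 2 (log2 fold change 3.20, SE 0.55, adjusted p = 0.011, edgeR). In run 3 its P7 animal had 963 CPM and the same T35 animals had 73 and 99.3 CPM, so its T35 level depended on the run while P7 was above T35 in both. Member 110 had 11.2, 10.4 and 10.7 CPM at P0, 29.2, 29.2 and 49.7 CPM at P3, 73.1, 105 and 162 CPM at P7 and 10.5 and 14.1 CPM at T35 in run 2.

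Member 110 had a log2 fold change of 2.61 (SE 0.34, adjusted p = 0.00123, edgeR) between P7 and T35. At T42, 7 days older than P7 from conception, it had 25.7, 26.8 and 26.9 CPM, below the 162 CPM of the P7 animal in the same run. Member 145 had 139, 97.1 and 154 CPM at P7 and 33.7 and 41.5 CPM at T35 in run 2, a log2 fold change of 1.27 (SE 0.24, adjusted p = 0.0187, edgeR). Member 104 had 168, 126 and 178 CPM at P7 and 54.4 and 61.6 CPM at T35 in run 2 (log2 fold change 1.15, SE 0.22, adjusted p = 0.0192, edgeR).

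Member 118 had 68.4, 69.3 and 82 CPM at P7 and 24.9 and 33 CPM at T35 in run 2 (log2 fold change 1.09, SE 0.20, adjusted p = 0.0187, edgeR). In run 3 its T42 libraries had 69.6, 74.3 and 50.2 CPM and the P7 library 82 CPM. Member 19 had 1144, 1061 and 794 CPM at P7 and 183 and 256 CPM at T35 in run 2 (log2 fold change 2.57, SE 0.48, adjusted p = 0.0187, edgeR). Its P0 libraries were already at 735, 915 and 545 CPM. Member 19 is also 1 of 5 members (11, 19, 22, 49 and 131) that differed more than 2-fold between runs 1 and 3 in all 5 animals sequenced in both. Its mean run 3 minus run 1 difference was 1.21 on the log2 scale. That of member 104 was 1.48 (0.956 to 2.16) and that of member 145 was 0.996 (0.859 to 1.21). Members 110, 118, 127 and 137 had 0.811, 0.724, 0.347 and 0.039. The part of the run in the P7 and T35 values of these members was not tested.

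**Figure D5:**
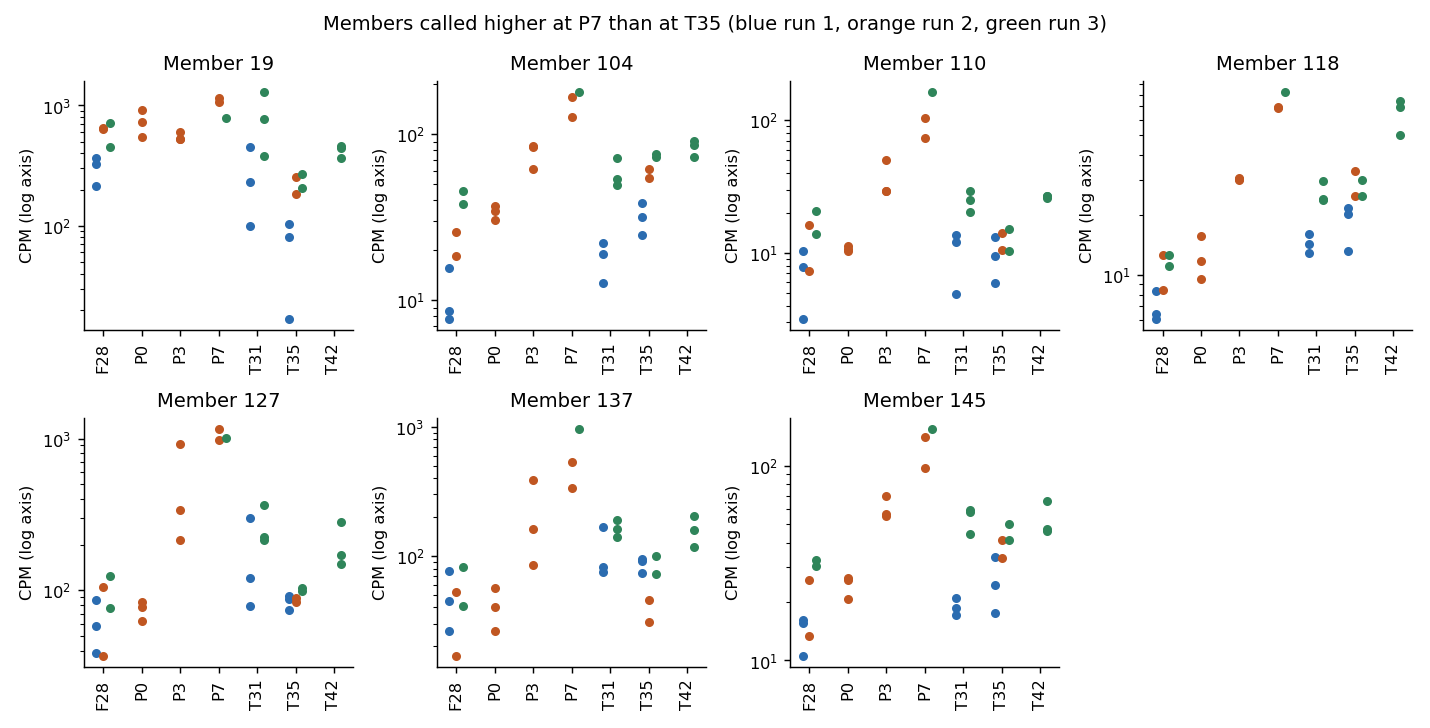
CPM (log axis) of the 7 members called higher at P7 than at T35, in the libraries of F28, P0, P3, P7, T31, T35 and T42 (blue run 1, orange run 2, green run 3), each point 1 library. The 3 P7 libraries of member 127 lie between 980.1 and 1154 CPM, above its T35 libraries in every run.

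Whether the change between the 2 ages differed between preterm and term animals, as P7 minus P3 against T35 minus T31, was tested after the member values had been seen. By edgeR, 0 of the 14544 genes were called (0%), 13 members (8.67%) and 5.64% of all genes had an unadjusted p under 0.05, and no other tool was run. The largest of the members was member 19, which had a preterm change of 1.10 and a term change of -3.11 on the log2 scale (difference 4.21, SE 0.77, adjusted p = 0.18, edgeR). In this fit T31 came from runs 1 and 3 and T35 from runs 1 and 2, so the term change goes through the run term. Within run 1 alone, the T35 against T31 log2 fold change of member 19 was -1.87 (SE 0.62, adjusted p = 0.134, edgeR).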

How the data were processed

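Lung RNA of 45 rabbits was sequenced in 54 libraries by the authors with the QuantSeq FWD kit, which reads transcripts near their 3′ end. The authors trimmed adapters with BBduk, mapped with STAR to the OryCun2.0 build and obtained gene counts by HTSeq-count from the Ensembl annotation, and the deposited values are whole-number counts per gene without normalization. Tool versions are not given in the sources used here. The methods also describe a script that adds reads from 3′ UTRs outside the annotation, and whether the table includes them is not stated.

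Groups, animals and runs were taken from the labels, 0 columns were left unmapped, and 0 pairs of libraries were identical (highest correlation 0.983). CPM was the count divided by the library total, times 1000000. Tests used edgeR 4.0.16 (R 4.3.3) with TMM normalization, a minimum of 0.5 CPM in 3 or more fitted libraries, the quasi-likelihood test and Benjamini-Hochberg adjustment over all genes tested. Calls needed a more than 2-fold change with an adjusted p no greater than 0.05. F20, F23, T31 and T37 were compared in a fit of run 3, F27, T31 and T35 in a fit of run 1, and the preterm groups in a fit of 21 libraries with the run as a term. Fits with DESeq2 1.42.0, limma-voom (limma 3.58.1), other filters and single animals left out were alternatives. The fits were tested on simulated data. Descriptions and figures were made with pandas 2.3.3 and matplotlib 3.10.9. No molecular identifiers were used, so reads of a gene may be copies of 1 molecule.

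The members, gene lists and tests were chosen with earlier results of these data known. The named members are the 15 with the largest difference, the 3 next to the limit and, per comparison and direction, the 5 with the largest called change whose groups do not overlap. Members 104 and 118 complete the 7 called at P7 and, like member 139, were added after their values were seen.

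Replicate numbers are shared by some preterm groups. Between same-numbered P0 and P7 animals the correlation of deviations was 0.00956, 0.0677 and 0.2, so the numbers were not taken as pairs.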

Additional observations from a re-analysis of the deposited data

Results flagged for a closer look

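Single libraries far from the rest of their group were looked for among 156 sets of 4 to 6 libraries (F20, F23, T37 and T31). Dixon's 95% limit was used, and 16 were found. Its chance rate of about 1 in 20 is for continuous values. A few reads beside 0 counts can pass the limit readily, so the 16 cannot be set against that rate. At F20 the flagged values were CPM values near the detection limit or above it in 1 animal. Member 4 had 5.88 CPM in animal 17 against 0.546 to 1.24 in the others, member 137 had 8.06 CPM in animal 35 against 0.933 to 0.964, and member 119 had 5.73 CPM in animal 35 against 0.413 to 0.82. Members 7 and 110 had 0.273 CPM in animal 35, member 14 had 0.155 CPM in animal 1 and member 109 had 0.137 CPM in animal 17, each against 0 in the others. Member 10 had 0.276 CPM in animal 36 against 0.137 to 0.155.

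At F23, member 11 had 6.05 CPM in animal 22 against 9.69 to 10.2, and member 33 had 3.13 CPM in animal 23 against 0.736 to 0.966. At T31, over runs 1 and 3 together, member 8 had 2683 CPM in animal 4 against 1811 to 2049, and member 23 had 82.0 CPM in animal 11 against 3.68 to 23.4. In T31 animal 10, member 107 had 14.1 CPM against 2.11 to 6.45 and member 136 had 82.4 CPM against 11.3 to 31.8. At T37, member 5 had 12.9 CPM in animal 12 against 2.45 to 2.95, and member 145 had 28.8 CPM in animal 46 against 49.2 to 51.8.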

How the results depend on the processing

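Of 159 alternative values, 125 stayed within 1.5 times the reported count or within the spread of a share, and 0 reversed. With at least 10 counts in every library, which leaves out members low in the early groups, 11 members were called for F23 against F20, 41 for T31 against F23, 8 for T37 against T31, 36 for T31 against F27 and 2 for T35 against T31. limma-voom called 12 for F23 against F20. For T35 against T31, DESeq2 called 2, no filter 2, the adjusted p alone 1, and 36 animals of runs 1 and 3 together 6. For P3 against P0, 4 were called without the run in the model and 26 in the 9 preterm libraries alone. For P3 against T31, DESeq2 called 3, no filter 4 and the model without the run 3. For P7 against T35, DESeq2 called 11, no filter 13 and the model without the run 3. The causes were not tested.

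With 1 animal left out, the counts were 24 to 42 for F23 against F20 (24 without F20 animal 17), 132 to 139 for T31 against F23, 13 to 17 for T37 against T31, 29 to 59 for T31 against F27 (29 without F27 animal 1), 0 to 2 for T35 against T31, 5 to 10 for P3 against P0, 19 to 25 for P7 against P0, 0 for P3 against T31 and 1 to 4 for P7 against T35. The median share reached was 0.386 to 0.507 at F27 and 0.839 to 0.882 at F28.

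With the replicate number as a block in the 9 preterm libraries, P3 against P0 called 21 members and P7 against P0 called 35, against 26 and 31 without the block (both fits of these libraries without the block were added after seeing the data). The numbers were not taken as pairs: 1 of 3 correlations between P0 and P7 exceeded 0.1, and 2 of 3 P0 animals and 1 of 3 P7 animals correlated best with their own number. The block changed no direction.

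Levels below 1 CPM rest on a few reads, which limits the early fetal comparisons, and the preterm comparisons rest on 3 animals a group.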
